A study of Mus musculus with 11 samples.

Results

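Retinoic acid handling genes were followed through the developing floor of the mouse cochlear duct. The set held 9 genes, taken by symbol from the pathway and put together with earlier results of these data known: the synthesis enzymes *Aldh1a1*, *Aldh1a2* and *Aldh1a3*, the degrading enzymes *Cyp26a1* and *Cyp26b1*, the cytosolic binding proteins *Crabp1* and *Crabp2*, and the receptors *Rarb* and *Rarg*. All 9 were present among the 18667 genes that the tables of the 4 ages shared. The data were single cell transcriptomes, made with droplet capture (10x Chromium), of wild type CD1 mice at embryonic days 14 and 16 (E14 and E16) and postnatal days 1 and 7 (P1 and P7), with 2, 3, 4 and 2 libraries. No animal was treated, and no group carried an altered allele. Each library came from the pooled cochleae of several pups, from which roof and lateral wall had been cut away. Every library held a single age, so age and library preparation cannot be told apart. The p-values of tests between ages measure the spread between libraries, pooled over the ages. In tests between regions the library is a block. Their p-values measure the scatter of regions within libraries, pooled over all ages, and not the spread between libraries.

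Retinoic acid is made inside cells from vitamin A (retinol), which is first oxidised to retinaldehyde. Retinaldehyde dehydrogenases (Aldh1a enzymes) then form retinoic acid, Cyp26 enzymes hydroxylate it for removal, and Crabp proteins hold it in the cytosol. Retinoic acid receptors bind DNA with retinoid X receptors and switch target genes on when they carry the ligand, among them the genes of some of the same enzymes and receptors. In the inner ear the pathway is known for its part in regional patterning and in the formation of hair cells, and too much or too little of it disturbs ear development.

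Cells were clustered within each age without these 9 genes and without the other pathway genes described further on, and clusters were named from marker genes. The regions run from the medial to the lateral side of the duct floor: interdental cells at the medial edge, which lie over the spiral limbus, the medial and the remaining (other) Kolliker organ, a transient ridge that secretes tectorial membrane proteins, medial prosensory and inner phalangeal cells, hair cells, lateral prosensory cells with the pillar and Deiters cells that form from them, and lateral non-sensory cells, which include Hensen, Claudius and outer sulcus cells. Cells with roof markers such as *Oc90* were still found, and in order of age they numbered 856, 443, 147 and 31. At P7 no cluster was named as medial Kolliker organ, interdental, medial prosensory or lateral non-sensory, and only 71 cells were named as lateral prosensory, pillar and Deiters cells. This rests on the clustering: at a Leiden resolution of 1, 253 and 221 cells of the P7 libraries were named as medial Kolliker organ, and with cells gated one by one each of these regions held at least 25 cells in either library, so the other Kolliker organ of P7 may take in medial cells. Between 4 and 12 markers per region were detected at 10 CPM or more, and in each region most stood above the mean of the other regions. Unnamed clusters held 462, 1932 and 1052 cells at E16, P1 and P7.

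The 11 libraries held 30634 cells in all, from 1247 to 5598 per library, with medians of 2478 to 5647.5 transcripts (unique molecular identifiers, UMIs) per cell. Of the cell barcodes, 11, 29, 84 and 9 occurred in more than 1 library of E14, E16, P1 and P7. The unit of a level is CPM, a gene's UMIs scaled to a cell total of 1000000, averaged over the cells of a region in each library, as mean ± SD over libraries. Changes are differences of log2(CPM + 10), which are smaller than the ratio of the means for weakly expressed genes, and were tested with limma over every gene that averaged 5 CPM or more, at an adjusted p of 0.05. On simulated data the fits over regions called too many unchanged genes in regions with few cells, so each call was also computed with weights for depth. For the 9 genes, "rose", "fell", "higher" and "lower" are used of tests where both calls were made. A region is set against all other epithelial regions of its age, which were 7 up to P1 and 3 at P7, so a difference at P7 has another reference than one at P1. Roof cells at P1 and P7 are given by their levels, because even the weighted fit had a large share of false calls there. Of the regions that stay in the counts, hair cells at E14 had as large a share, and lateral prosensory cells at E14 and P7 and medial prosensory cells at E16 a sizeable one, so calls for weakly expressed genes there are the least certain.

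Promoter sequence is shown because genes of the degrading enzymes and of retinoic acid receptor beta are textbook targets of retinoic acid itself. Windows of 300 bases, from 250 before to 50 after the start site, were available from RefSeq (GRCm38.p6) for 7 of the 9 genes. They were searched on both strands for the retinoic acid response element of the DR5 type, a direct repeat of a short motif with a spacer of 5 bases. It was found in 2 of the 9 windows of these 7 genes, those of *Cyp26a1* and *Rarb*, and in 32 of all 32851 promoter windows (0.0974%). Both genes are among the textbook targets named above, so the match is no test of enrichment. None of the windows of 33 other pathway genes held it. The stretches below are the 150 bases before the start site, 5′ to 3′ in the direction of the gene, with the element in capitals. The *Cyp26a1* stretch is chr19:37697658-37697807 on the plus strand, and its element, at bases -32 to -16, reads AGTTCACCCAAAGTTCA on the opposite strand. The *Rarb* stretch is chr14:16575477-16575626 on the minus strand, with its element at bases -53 to -37. The stretches of *Cyp26b1* (chr6:84593811-84593960, minus strand) and *Crabp1* (chr9:54764598-54764747, plus strand) are given beside them as genes with strong regional patterns and no match in the window.
Cyp26a1: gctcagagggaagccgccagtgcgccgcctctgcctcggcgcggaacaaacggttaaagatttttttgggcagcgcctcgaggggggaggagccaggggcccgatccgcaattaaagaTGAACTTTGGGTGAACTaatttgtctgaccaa
Rarb: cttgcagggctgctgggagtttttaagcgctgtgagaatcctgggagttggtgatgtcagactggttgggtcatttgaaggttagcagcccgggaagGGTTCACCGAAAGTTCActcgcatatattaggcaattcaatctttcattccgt
Cyp26b1: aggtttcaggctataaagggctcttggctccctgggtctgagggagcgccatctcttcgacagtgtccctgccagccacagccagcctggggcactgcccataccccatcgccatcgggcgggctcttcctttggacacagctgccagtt
Crabp1: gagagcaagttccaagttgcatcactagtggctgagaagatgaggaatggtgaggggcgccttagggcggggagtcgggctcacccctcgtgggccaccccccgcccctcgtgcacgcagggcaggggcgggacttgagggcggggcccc

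A match is a description of the letters in the window. Between the levels of the 2 genes with the element, *Cyp26a1* and *Rarb*, the correlation of log2(CPM + 10) was -0.14 over the 30 groups of age and cell class. Of these groups 2 were the mesenchyme and glia of P7, with 57.2 and 50.7 CPM of *Rarb*. The highest epithelial mean of *Rarb* was 15.1 CPM, in medial prosensory and inner phalangeal cells at P1. A value without the 2 groups was not computed.

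Over all epithelial cells the binding proteins and *Cyp26b1* were the members that changed with the most UMIs behind them. *Crabp1* rose from 60.2 ± 18.2 CPM (n = 2) at E14 to 521 ± 143 (n = 3) at E16 and 1060 ± 367 (n = 4) at P1, and fell to 1.01 ± 0.0128 (n = 2) at P7. *Crabp2* stayed between 241 and 537 CPM in every library from E14 to P1 and fell to 93.3 ± 16.7 at P7. *Cyp26b1* measured 30.3 ± 1.15 CPM at E14, 59.5 ± 14.7 at E16 and 55.6 ± 6.72 at P1, and fell to 18.5 ± 4.67 at P7. *Aldh1a3* fell at both steps up to P1, from 17.5 ± 4.75 to 6.47 ± 1.19 and 0.801 ± 0.115 CPM (it passed the filter through its E14 level, and was not tested without either E14 library or with a filter of 10 CPM). *Cyp26a1* fell from 19.4 ± 7.26 CPM at E14 to 5.94 ± 2.80 at E16. *Cyp26a1* also passed the filter through its E14 level. It was not tested without the E14 library in which it was higher or with a filter of 10 CPM. *Aldh1a1* rose from 3.55 ± 3.28 CPM at P1 to 16.7 ± 2.46 at P7. Cell make-up differed between ages. Roof cells, with 393 of the 539 *Cyp26a1* UMIs of E14, were 14.7% and 17.4% of the E14 libraries and 3.93%, 3.63% and 7.49% of those of E16. At P7 an unnamed cluster of 226 cells held 132 of all 339 *Aldh1a1* UMIs. The part of cell make-up in the changes over all epithelial cells was not tested.

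Of the 9 genes, 7 passed the filter over all epithelial cells, and *Aldh1a2* and *Rarb* did not. From E14 to E16, 4 of the 7 were called, against a background of 7.94% of all genes tested in the same fit, and 3 were also called with depth weights. From E16 to P1, 2 of 7 were called against 12.7%, and from P1 to P7, 4 of 7 against 22.8%, all of them in both fits. The E14 to E16 difference of *Cyp26b1*, 0.76 ± 0.21 (SE) on the log2 scale, had an adjusted p of 0.0435 and of 0.0518 with weights, and the libraries of both ages did not overlap.

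**Figure D1:**
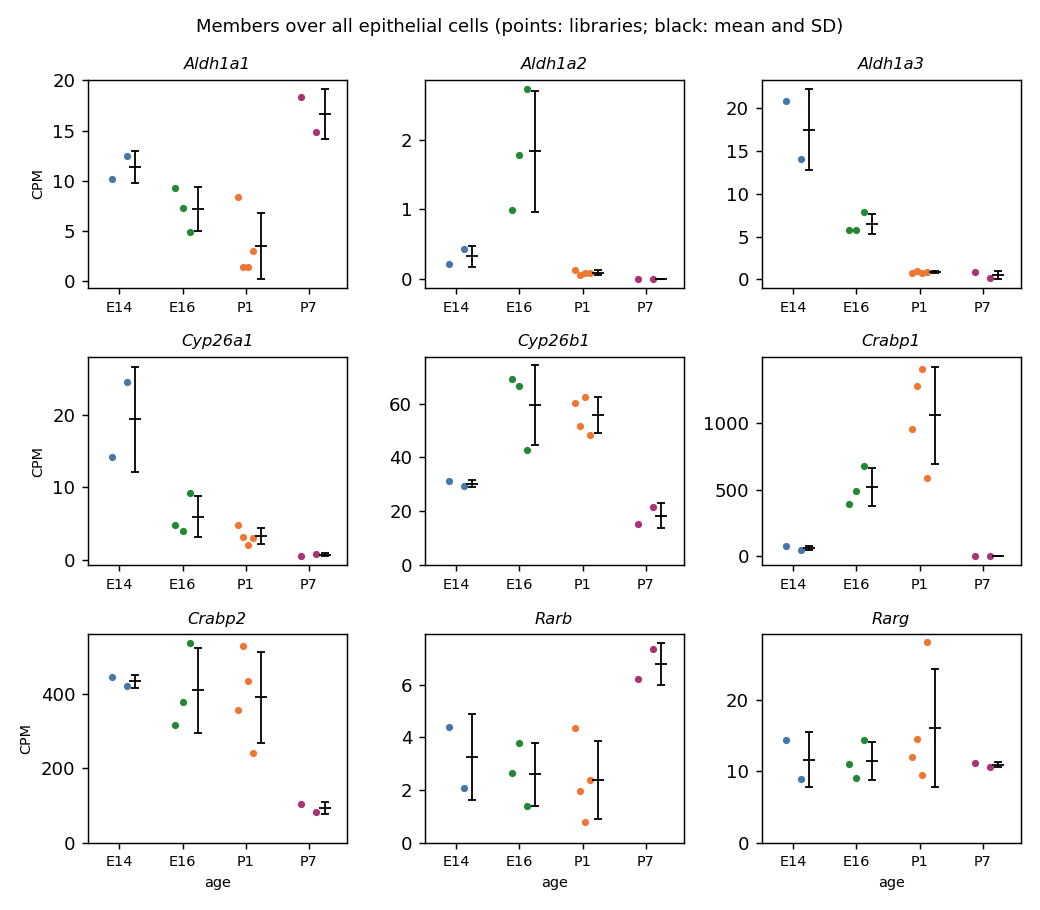
Mean level of each of the 9 genes over all epithelial cells of a library, in CPM (vertical axes, linear, each with its own range), by age (horizontal axes). Each point is a library, and the black bars are the mean and SD; *Crabp1* sits between 589 and 1412 CPM in the P1 libraries and near 1 CPM in both P7 libraries.

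The synthesis enzymes were found in few cells and in different places. *Aldh1a3*, which makes retinoic acid in several embryonic sense organs, marked the medial edge at E14. Its level in interdental cells was 120 and 74.0 CPM in the E14 libraries, 11.5, 9.13 and 25.5 CPM at E16 and 1.30 ± 1.19 CPM at P1. Both E14 libraries lay above all libraries of the later ages. The change was -2.10 ± 0.32 from E14 to E16 (adjusted p = 0.000967) and -1.12 ± 0.27 from E16 to P1 (adjusted p = 0.0142). The second step was lost without E16 replicate 3 (-0.85, adjusted p = 0.0512), with a pseudocount of 50 CPM (-0.34), with no filter on low values (-1.12, adjusted p = 0.0568) and with cells gated one by one (-1.22, adjusted p = 0.0514).

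At E14 interdental cells exceeded the mean of the other regions by 2.91 ± 0.21 for *Aldh1a3* (adjusted p = 5.85e-18). The gene passed the filter of the fit over regions only through this E14 interdental level. Its calls there, interactions included, are thus not independent of that level. The next regions at that age were roof cells with 12.6 ± 10.5 CPM and the medial Kolliker organ with 11.3 ± 0.389 CPM, which overlapped. The difference between interdental cells and the other regions shrank by 2.13 on the log2 scale from E14 to E16, a change of its own (interaction, adjusted p = 4.26e-07). This call was lost with a pseudocount of 1 CPM. The libraries of the medial Kolliker organ had 11.1 and 11.6 CPM at E14 and at most 6.05 CPM at E16, and the step was not tested because the gene was under the filter there. Within interdental cells at E14, the cluster led by *1500015O10Rik*, *Smoc2* and *Foxq1* held 115 ± 51.5 CPM and the cluster led by *Foxq1*, *Msc* and *Tpm2* 69.4 ± 2.76 CPM.

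*Aldh1a1*, a retinaldehyde dehydrogenase with a wide range of substrates, marked the lateral side and the roof. In roof cells it measured 62.1 and 64.6 CPM at E14 and 129, 61.6 and 30.2 CPM at E16. These values were above the other regions by 2.72 ± 0.24 at E14 (adjusted p = 8.05e-15) and by 2.48 ± 0.20 at E16 (adjusted p = 3.35e-17). The E16 roof libraries were spread over more than the distance between the ages. The 3 roof libraries of P1 with enough cells had 6.52, 10.2 and 7.85 CPM, and those of P7 had 208 and 129 CPM, from 31 cells. The P7 cluster was led by *Oc90*, *Vmo1*, *Ucma* and *Pmch*, and *Pmch* also led a lateral non-sensory cluster at E16 and P1. The part of lateral cells in its values was not tested.

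In lateral non-sensory cells *Aldh1a1* was low at E14, with 3.23 and 6.49 CPM. It measured 23.7, 39.2 and 13.6 CPM at E16 and 96.0, 27.5, 39.8 and 90.7 CPM at P1. At P1 these cells were the region with the highest mean, above the other regions by 2.39 ± 0.17 (adjusted p = 6.94e-19), and no library of another region reached their lowest value. Their difference from the other regions grew by 1.20 from E16 to P1 (interaction, adjusted p = 0.00571), a call kept in 16 of 21 alternatives. Those that lost it included the fits without P1 replicate 1 (1.03, adjusted p = 0.0527) or P1 replicate 4 (0.99, adjusted p = 0.0788). Among the lateral non-sensory cells of P1, the cluster led by *Pmch*, *Fst* and *Nupr1* held 97.2 ± 52.3 CPM and the cluster led by *Apoe*, *Fbln2* and *Bmp4* 46.2 ± 45.4 CPM (n = 4 each). At P7, where no cluster carried the name, an unnamed cluster led by *Gpx3*, *Fst* and *Cnmd* held 80.7 ± 21.7 CPM of *Aldh1a1*, and the other Kolliker organ held 8.82 and 15.2 CPM.

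*Aldh1a2*, the main synthesis enzyme of embryonic mesenchyme, was nearly absent from the duct floor, with 12, 62, 10 and 0 UMIs over all epithelial cells of E14, E16, P1 and P7. Of the 62 UMIs at E16, 48 lay in roof cells, where the libraries had 4.09, 31.5 and 27.0 CPM. All 48 were in the cluster led by *Sptssa*, *Oc90* and *Enpep*, at 41.2 ± 30.6 CPM. No epithelial UMI at P7 in 15856937 allows up to 0.189 CPM (3 UMIs), a limit that, like the intervals of all such counts, covers counting error only.

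**Figure D2:**
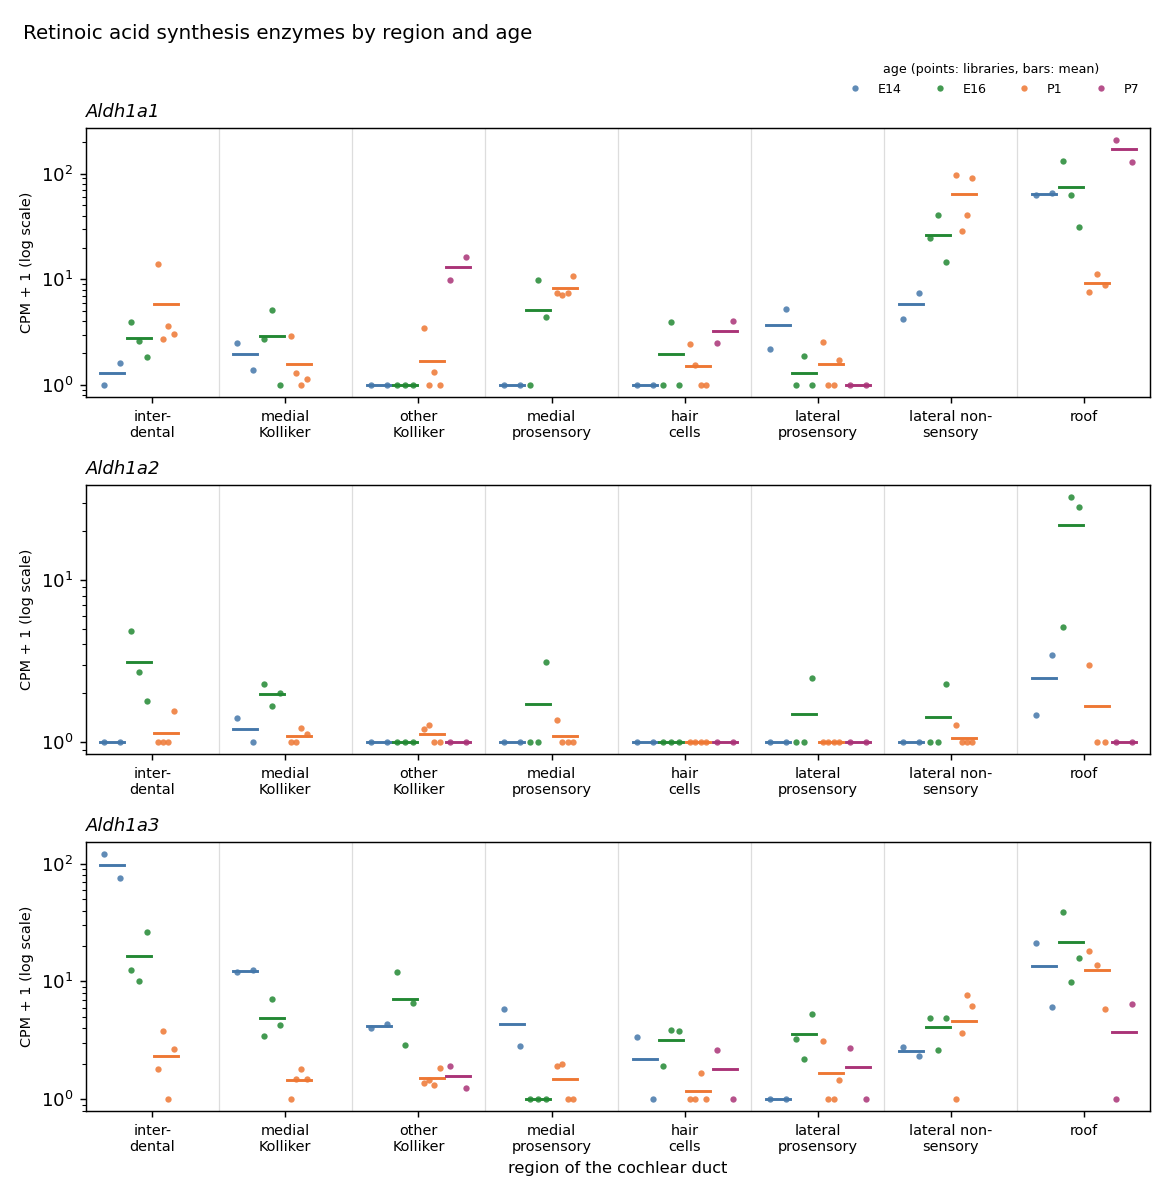
Levels of *Aldh1a1*, *Aldh1a2* and *Aldh1a3* as CPM + 1 on log axes, by region of the cochlear duct from interdental cells to roof cells (horizontal axis) and by age (colour). Points are libraries and horizontal bars are means over libraries; *Aldh1a3* in interdental cells steps down from 97.0 to 15.4 and 1.30 CPM, while *Aldh1a1* in lateral non-sensory cells has means of 4.86, 25.5 and 63.5 CPM, with neither step called.

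The degrading enzymes differed in where they were highest, and medial prosensory cells held both up to E16. *Cyp26b1* was highest in the prosensory domain. In lateral prosensory, pillar and Deiters cells it measured 126 and 61.4 CPM at E14, 247, 276 and 256 CPM at E16, and 284, 294, 265 and 201 CPM at P1. Every E16 and P1 library lay above both E14 libraries. The step from E14 to E16 was 1.45 ± 0.34 with an adjusted p of 0.0189, and 0.0703 with depth weights. The E14 value rests on 143 cells and 91 UMIs. At P7 the 71 cells gave 69.6 and 186 CPM, and the step from P1, -1.10 ± 0.32, had an adjusted p of 0.0234, or 0.0519 with weights. A P7 cluster of 85 cells led by *Mansc4*, *Rbp7* and *Car14* stayed unnamed, so P1 and P7 may not hold the same cells of this region.

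Medial prosensory and inner phalangeal cells held 137 and 142 CPM of *Cyp26b1* at E14, 214, 224 and 137 CPM at E16 and 185, 163, 184 and 108 CPM at P1. The ages overlapped in this region. Both prosensory regions stood above the others at each of the 3 ages, the lateral one by 1.6 ± 0.25, 2.66 ± 0.20 and 3.06 ± 0.18 and the medial one by 2.29 ± 0.25, 2.15 ± 0.20 and 2.28 ± 0.18. The largest of the 6 adjusted p-values was 1.63e-06. Every library of the lateral region exceeded every library of the medial region at E16 and P1 and none did so at E14. At P7 the lateral region exceeded the others by 2.73 ± 0.27 (adjusted p = 3.75e-13), and hair cells and the other Kolliker organ alone by 2.28 ± 0.28 (adjusted p = 9.74e-10).

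Hair cells, which arise inside the prosensory domain, had less *Cyp26b1* than the prosensory regions. At E14 the hair cell mean, 36.7 CPM on 20 UMIs, was above those of the remaining regions. The hair cell libraries overlapped those of the other Kolliker organ, which held 33.6 and 35.6 CPM. Hair cell libraries held 48.3 and 25.2 CPM at E14, 24.3, 31.6 and 6.87 CPM at E16 and 17.2, 4.63, 11 and 9.59 CPM at P1. They were lower than the mean of the other regions at E16, by -1.02 ± 0.20 (adjusted p = 3.45e-05), and at P1, by -1.21 ± 0.18 (adjusted p = 1.79e-08). At P7 the values were 12.7 and 21.8 CPM, and the step within hair cells was not called (0.42, adjusted p = 0.514). Their difference from the lateral supporting cells and the other Kolliker organ, the only regions besides the roof named at both ages, changed by 1.41 ± 0.35 (interaction, adjusted p = 0.002). Against all regions of each age the change was 0.98 ± 0.32 (adjusted p = 0.0216), a call kept in 16 of 22 alternatives. It was lost, among others, without P1 replicate 2 (0.84), P1 replicate 3 (0.93), P7 replicate 4 (0.97) or P7 replicate 5 (0.99). Of the P7 hair cell clusters, the one led by *Ocm*, *Pcp4* and *Lmod3*, with 33 cells, had 59.1 ± 14.6 CPM of *Cyp26b1* over 21 UMIs.

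At the edges of the duct *Cyp26b1* was low. Lateral non-sensory cells held a mean of 2.81 ± 1.19 CPM at E14, 14.6 ± 10.6 at E16 and 6.93 ± 4.75 at P1, below the mean of the other regions at each age by -1.77, -1.40 and -1.54. Interdental cells held 9.75 ± 3.22, 20.8 ± 11.3 and 9.21 ± 5.84 CPM, lower by -1.06, -1.0 and -1.34. With clusters at a Leiden resolution of 1 the *Cyp26b1* differences of lateral non-sensory cells at E16 (-0.13) and interdental cells at E14 (-0.27) were not called. The latter was kept in 18 of 22 alternatives and also lost, among others, without E14 replicate 1 (-1.10) or E14 replicate 2 (-1.02). The Kolliker organ lay between, and it was not uniform. At E16 the cluster of the other Kolliker organ led by *Chst2*, *Gjb2* and *Tsen15*, with *Hes5* among its leading genes, had 133 ± 40.0 CPM of *Cyp26b1*, and the cluster led by *Dkk3*, *Clu* and *Col9a1* had 27.4 ± 8.64 CPM. In the other Kolliker organ as a whole, *Cyp26b1* fell by 0.88 on the log2 scale from P1 (35.9 ± 7.30 CPM) to P7 (14.8 ± 2.75 CPM, adjusted p = 0.0274). The call was kept in 15 of 21 alternatives. It did not hold, among others, without P1 replicate 2 (-0.89, adjusted p = 0.053), P1 replicate 3 (-0.79), P7 replicate 4 (-0.77) or P7 replicate 5 (-0.99).

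*Cyp26a1*, the enzyme with the response element in its promoter window, was read from fewer UMIs (539, 142, 248 and 11 over all epithelial cells at E14, E16, P1 and P7). Its highest regional mean lay in roof cells at E14 and in lateral non-sensory cells at P1. At E16 the libraries of medial prosensory, lateral non-sensory and roof cells overlapped. UMIs summed over the libraries gave 21.7, 20.6 and 22.7 CPM there. At E14 roof cells held 71.2 and 94.6 CPM, above the other regions by 2.64 ± 0.29 (adjusted p = 4.91e-11). The roof cluster led by *Oc90*, *Cndp2* and *Kctd8* reached 179 ± 23.8 CPM, and the cluster led by *Sptssa*, *Anxa1* and *Ccdc3* 104 ± 5.22 CPM. At E16 the roof libraries had 3.38, 11.5 and 30.6 CPM, all below both E14 libraries. The direct step within roof cells was not called, where 17 of 10880 genes were. The roof difference had shrunk by 2.02 (interaction, adjusted p = 0.000953). Without E14 replicate 1 or E14 replicate 2 this change was -2.02 in either case, with an adjusted p of 0.11 and 0.112.

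In lateral non-sensory cells *Cyp26a1* was measured at 9.95 and 20.8 CPM at E14, at 0, 15.4 and 42.0 CPM at E16 and at 56.1, 69.8, 55.0 and 56.0 CPM at P1. Every P1 library lay above all earlier ones. At P1 these cells exceeded the other regions by 2.56 ± 0.21 (adjusted p = 2.23e-16), and the difference had grown by 1.87 ± 0.32 since E16 (interaction, adjusted p = 0.000165). The direct step within the region, 1.54 ± 0.41, had an adjusted p of 0.0418, or 0.145 with weights. At P1 the *Cyp26a1* UMIs lay in 1 of the named clusters of this region, led by *Apoe*, *Fbln2* and *Bmp4*, at 97.9 ± 10.1 CPM with 136 of 137 UMIs. At E16 all 47 UMIs of the region were in the cluster led by *Tac1*, *Fst* and *Hmga2*.

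Medial prosensory cells shared *Cyp26a1* early on. Their libraries held 13.9 and 35.2 CPM at E14, 78.9, 29.5 and 23.4 CPM at E16 and 3.14 ± 1.56 CPM at P1. The P1 libraries lay below all others, and the fall from E16 was 1.90 on the log2 scale (adjusted p = 0.00949). The E16 level rests on 16 UMIs, all in the cluster led by *Hmga2*, *Tectb* and *Fgf20* and none in the cluster led by *Matn4*, *Fabp7* and *Gjb2*. At P1 the region was made of clusters led by *Fabp7*, *Matn4* and *Trh* (13 UMIs), by *Tectb*, *Car2* and *Fabp7* (0 UMIs) and by *Matn4*, *Fabp7* and *Gjb2* (0 UMIs), so the ages may not hold the same cells, and the part of that in the fall was not tested. It also rests on how cells were grouped: with clusters at a Leiden resolution of 1, *Cyp26a1* in medial prosensory cells at E16 lay below the other regions, by -0.52, and with cells gated one by one on the same markers the fall to P1 was -0.41 with an adjusted p of 0.545. Lateral prosensory cells had no UMI at E14 (143 cells) or E16 (686 cells), and counts of 0 allow up to 3.83 and 1.46 CPM there.

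**Figure D3:**
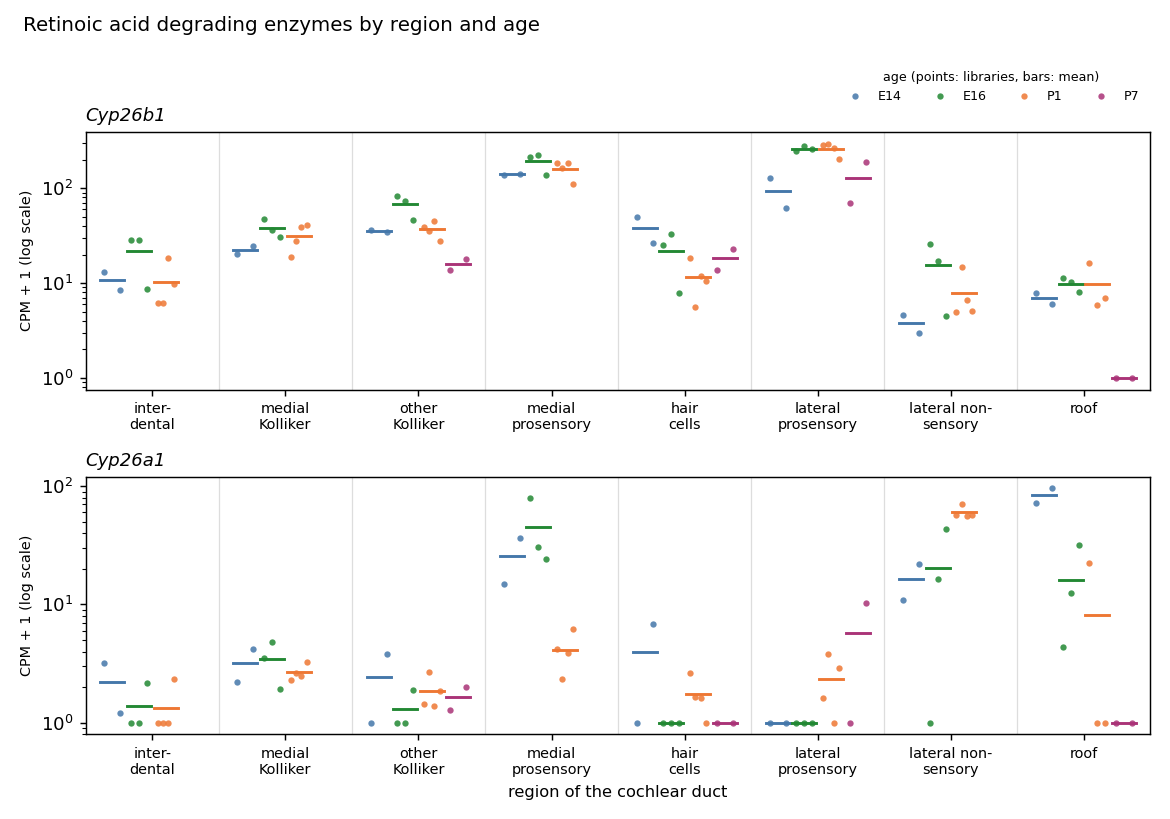
Levels of *Cyp26b1* and *Cyp26a1* as CPM + 1 on log axes, by region of the cochlear duct and by age (colour). Points are libraries and horizontal bars are means over libraries; *Cyp26b1* peaks in the prosensory regions, at 261 CPM in the lateral one at P1, and *Cyp26a1* in roof cells at E14 (82.9 CPM) and in lateral non-sensory cells at P1 (59.2 CPM).

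The binding proteins had the most UMIs. *Crabp1*, which is thought to sequester retinoic acid, belonged to the Kolliker organ. In its medial part the libraries held 181 and 105 CPM at E14, 1062, 1063 and 1812 CPM at E16 and 2293, 2567, 2691 and 1174 CPM at P1. The E16 and P1 libraries lay far above those of E14, and the E16 and P1 ranges overlapped. The rise from E14 to E16 was 3.11 ± 0.37 on the log2 scale (adjusted p = 0.000129). The clusters that made up the region differed between the ages. At E14, 5 of its 7 clusters were led by cell cycle genes and had 23.6 to 59.5 CPM of *Crabp1*, and the 2 led by *Epyc* had 272 and 301 CPM. At E16 its clusters had 858 to 1968 CPM, and a cycling cluster with 106 CPM stayed unnamed. The part of this in the rise was not tested. This region exceeded the others by 3.01 ± 0.39 at E14, 4.51 ± 0.32 at E16 and 4.79 ± 0.28 at P1, with adjusted p-values of 2.06e-08, 4.18e-18 and 8.71e-23.

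In the other Kolliker organ *Crabp1* measured 104 CPM in both E14 libraries, 461, 329 and 427 CPM at E16 and 613, 904, 890 and 352 CPM at P1. The E14 to E16 step, 1.85 ± 0.33, had an adjusted p of 0.00549, and 0.0661 with weights. At P7 the libraries held 1.03 and 1.49 CPM, and the fall from P1 was 5.87 on the log2 scale (adjusted p = 1.57e-09). Over all epithelial cells 12 UMIs of *Crabp1* were left at P7 in 2941 cells. At P1, where no cluster was named as non-epithelial and every cell was counted, there were 63868 UMIs in 14043 cells. *Crabp1* rose over all epithelial cells from E16 to P1 by 0.97 ± 0.28 (adjusted p = 0.0376). That call was lost on leaving out any one of E16 replicates 1 (0.79) and 2 (0.95), P1 replicates 2 (0.85) and 3 (0.81) and P7 replicates 4 and 5 (0.97 each).

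Interdental cells, the medial neighbours of the Kolliker organ, gained *Crabp1* as well, from 10.8 and 10.1 CPM at E14 to 50.9, 138 and 91.2 CPM at E16. The step was 2.24 ± 0.47 (adjusted p = 0.00902), a call kept in 16 of 22 alternatives. It was lost, among others, without E14 replicate 1 (2.27), E14 replicate 2 (2.22) or E16 replicate 2 (1.94, adjusted p = 0.0506). Clusters at a Leiden resolution of 1 (1.29, adjusted p = 0.0966) lost it too. At P1 their libraries held 46.5, 156, 250 and 117 CPM.

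In the remaining regions *Crabp1* was low at each age, and free RNA in the droplets can add UMIs there. Hair cells held 1.75 ± 2.47 CPM at E14, 26.7 ± 21.9 at E16, 30 ± 22.3 at P1 and no UMI at P7. These levels were 0% to 7.39% of the level over all epithelial cells of the same library, those of roof cells 1.85% to 11.8% up to P1, and those of lateral prosensory, pillar and Deiters cells 0% to 19.9%. The part of free RNA in them was not tested. In hair cells at P7, 3 UMIs would be 1.55 CPM, and their summed level at P1, 39.3 CPM, was 25.4 times this limit. The P1 libraries ran from 12.3 to 62.5 CPM, a spread that the ratio leaves out. Lateral prosensory, pillar and Deiters cells had no UMI at P7 either, with a limit of 4.67 CPM. Their summed P1 level, 68.1 CPM, was 14.6 times that limit, and their P1 libraries ran from 16.9 to 75.4 CPM.

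*Crabp2*, which carries retinoic acid to its receptors, was found in every region at E14. The libraries of that age ranged from 199 CPM in roof cells to 662 CPM in interdental cells. Hair cells and lateral supporting cells had less of it later on, while no step was called in medial prosensory and inner phalangeal cells. In hair cells it measured 313 and 287 CPM at E14, 157, 129 and 199 CPM at E16, 24.9, 36.1, 20.2 and 45.7 CPM at P1 and 10.5 and 3.03 CPM at P7. The libraries of each age lay below all those of the age before. *Crabp2* in hair cells fell by 2.06 on the log2 scale from E16 to P1 (adjusted p = 2.84e-05) and by 1.31 from P1 to P7 (adjusted p = 0.00454). The second call was kept in 19 of 21 alternatives and lost, among others, without P7 replicate 5 (-0.98). Over all cells *Crabp2* made up 347 CPM of all UMIs at P1 and 84.9 CPM at P7. Free RNA in the droplets can add UMIs to hair cells here too, and its part in these steps was not tested. The hair cell difference from the other regions widened from -0.87 ± 0.18 at E16 to -2.53 ± 0.15 at P1 (interaction, -1.65 ± 0.23, adjusted p = 8.78e-08).

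In lateral prosensory, pillar and Deiters cells *Crabp2* stood at 459 and 351 CPM at E14, 164, 134 and 155 CPM at E16, 60.7, 116, 76.5 and 69.2 CPM at P1 and 10.3 and 6.73 CPM at P7. The ages did not overlap. The first step was -1.36 ± 0.30 (adjusted p = 0.0131), a call kept in 17 of 21 alternatives. It was lost, among others, without E14 replicate 1 (-1.17), E14 replicate 2 (-1.55) or E16 replicate 2 (-1.28). The last step was -2.26 ± 0.29 (adjusted p = 8.82e-06). At P1 the region held 957 cells, 282 of them in a cluster led by *Pdzk1ip1*, *Serpine2*, *Car14* and *Mansc4*. At P7 it held 71 cells, and a cluster of 85 cells led by *Mansc4*, *Rbp7* and *Car14* stayed unnamed. The ages may thus not hold the same cells, and the part of that in the last step was not tested. Interdental cells fell from 425 ± 127 CPM at E16 to 181 ± 95.2 at P1, by 1.30 on the log2 scale (adjusted p = 0.0166). The call was kept in 17 of 22 alternatives. It was lost, among others, without E16 replicate 2 (-1.35) or E16 replicate 3 (-1.07) and with clusters at a Leiden resolution of 1 (-0.73).

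The Kolliker organ kept its *Crabp2* until P1. The other Kolliker organ held 556 and 509 CPM at E14, 295, 463 and 614 CPM at E16 and 611, 784, 671 and 431 CPM at P1. Those ranges overlapped. Its difference from the other regions grew from 0.73 ± 0.18 at E16 to 1.97 ± 0.15 at P1 (interaction, 1.24 ± 0.23, adjusted p = 0.000466). At P7 it held 140 and 115 CPM, a fall of 2.18 on the log2 scale (adjusted p = 2.61e-05), and remained above hair cells and lateral supporting cells. Lateral non-sensory cells and medial prosensory cells also held a mean of over 250 CPM of *Crabp2* at P1 (336 ± 126 and 281 ± 102). The 31 cells of the P7 roof cluster, with *Pmch* among its leading genes, gave 543 and 195 CPM.

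**Figure D4:**
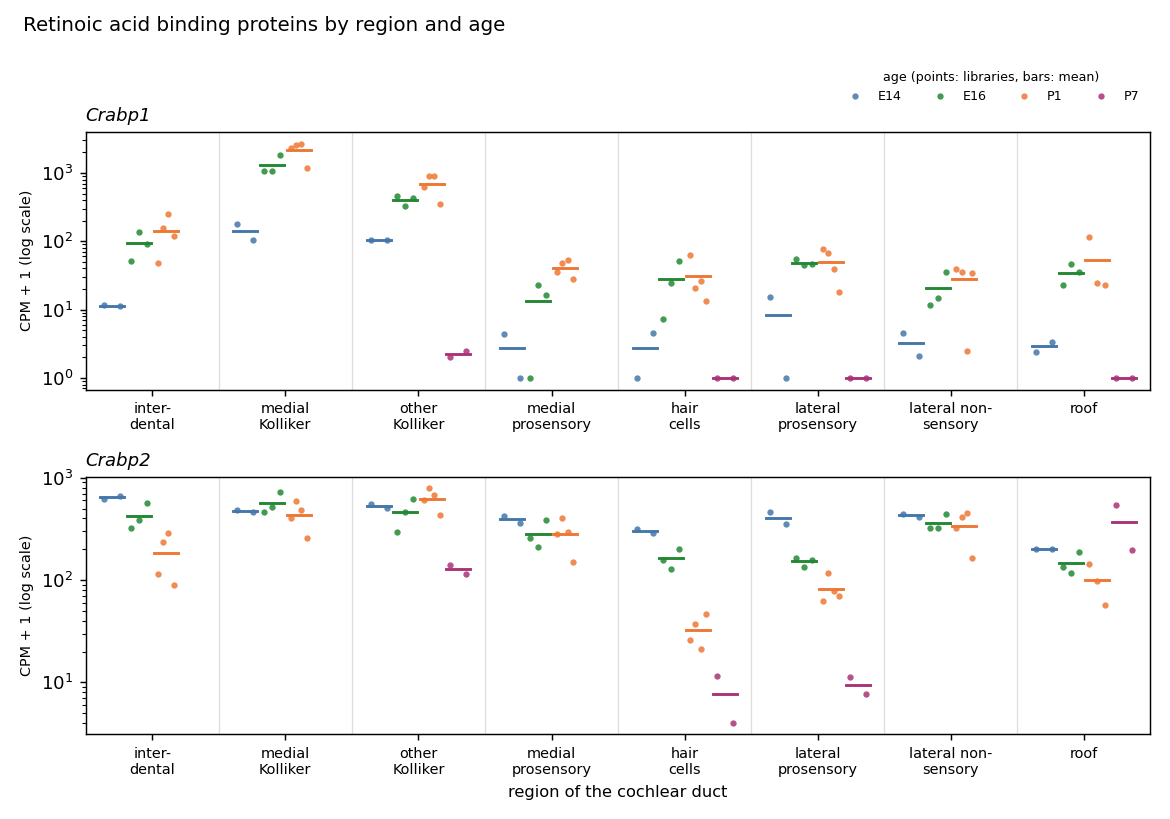
Levels of *Crabp1* and *Crabp2* as CPM + 1 on log axes, by region of the cochlear duct and by age (colour). Points are libraries and horizontal bars are means over libraries; *Crabp1* peaks in the medial Kolliker organ at 2181 CPM at P1 and is near 0 at P7 in all 4 regions measured, and *Crabp2* in hair cells has means of 299.8, 162, 31.7 and 6.77 CPM in order of age.

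The receptors were present at low levels. *Rarg*, retinoic acid receptor gamma, held between 8.89 and 28.1 CPM over all epithelial cells in every library of every age, and no step between ages passed the threshold. At E16 and P1 its highest regional mean was that of interdental cells. Their libraries held 13.2 and 10.5 CPM at E14, 36.5, 20.0 and 29.4 CPM at E16 and 33.0, 31.8, 24.4 and 73.2 CPM at P1. The E16 and P1 libraries all lay above those of E14, but neither step was called. Interdental cells exceeded the other regions by 1.12 ± 0.23 at E16 (adjusted p = 0.000197) and by 1.38 ± 0.20 at P1 (adjusted p = 7.95e-08). P1 replicate 4 had the highest *Rarg* level of the P1 libraries in interdental cells, in both parts of the Kolliker organ and over all epithelial cells.

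Hair cells had little *Rarg*. No UMI was found in 62 hair cells at E14, which allows up to 6.88 CPM, and later means were 1.61, 0.597 and 1.74 CPM at E16, P1 and P7. They were lower than the other regions by -0.85 ± 0.23 at E16 (adjusted p = 0.00252) and by -1.10 ± 0.20 at P1 (adjusted p = 3.94e-06). The E16 call was lost without E16 replicate 3 (-0.71, adjusted p = 0.0646). Lateral prosensory, pillar and Deiters cells were lower as well, with means of 1.81 and 2.11 CPM at E16 and P1 and differences of -0.83 ± 0.23 and -0.89 ± 0.20, of which the E16 one was lost without E16 replicate 1 (-0.75) or E16 replicate 3 (-0.76).

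*Rarb*, retinoic acid receptor beta, is switched on by retinoic acid in many tissues. It had 68, 62, 211 and 112 UMIs over all epithelial cells of E14, E16, P1 and P7 and stayed under the filter of most fits. Its highest means at E14 were in lateral prosensory cells (19.7 and 6.18 CPM) and medial prosensory cells (12.2 and 8.47 CPM), which overlapped. At P1 medial prosensory and inner phalangeal cells held 17.4, 20.3, 11.6 and 11.1 CPM and lateral prosensory, pillar and Deiters cells 12.5, 6.85, 1.00 and 10.8 CPM. The medial Kolliker organ had at most 0.0781 CPM in any P1 library. At P7 the other Kolliker organ held 7.28 and 9.67 CPM, above the 0 to 3.37 CPM of the P1 libraries, and the step was not tested because the gene was under the filter there.

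**Figure D5:**
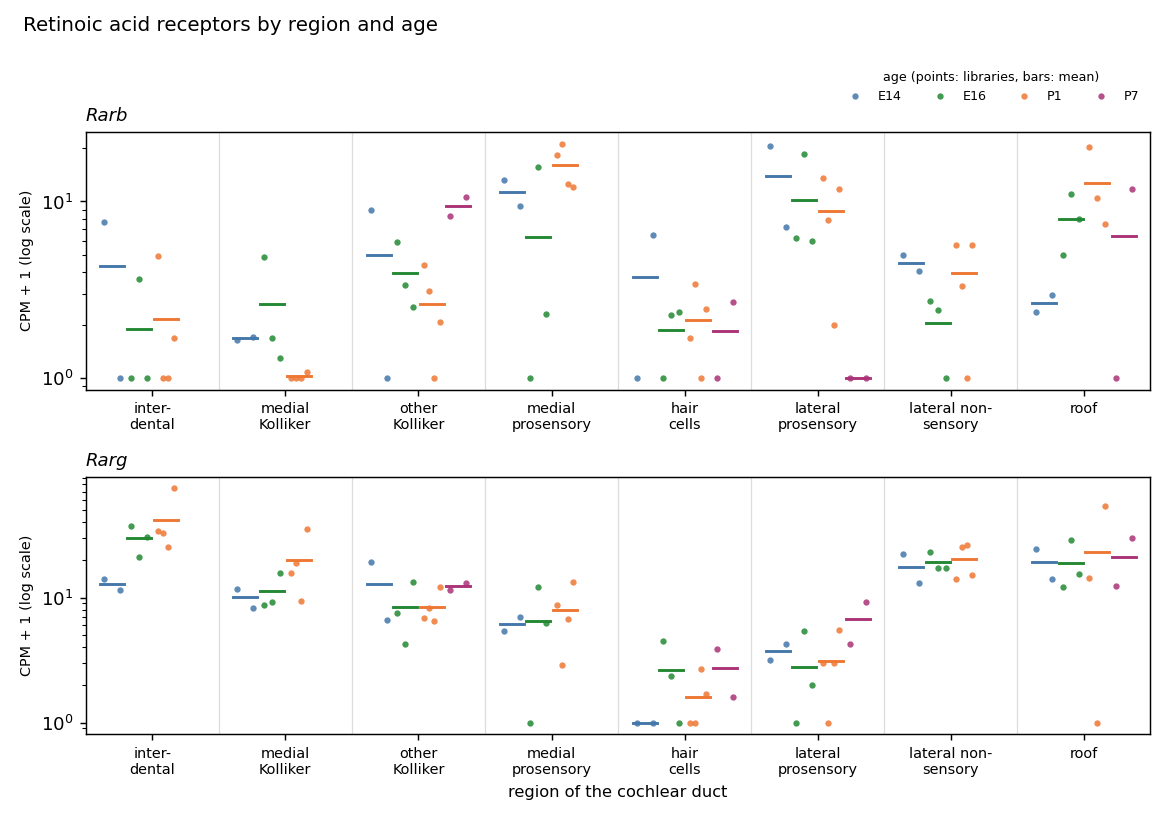
Levels of *Rarb* and *Rarg* as CPM + 1 on log axes, by region of the cochlear duct and by age (colour). Points are libraries and horizontal bars are means over libraries; *Rarg* is highest in interdental cells at E16 and P1 (28.6 and 40.6 CPM) and lowest in hair cells there, and *Rarb* stays under 21 CPM in every library and region.

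Counted over regions, the members changed with age within a region in 8 of 41 tests from E14 to E16 (4.39% of all gene and region tests were called), in 7 of 41 from E16 to P1 (6.77%) and in 11 of 20 from P1 to P7 (12.9%). In both fits, and without the roof cells of P1 and P7, 4 of 41, 4 of 32 and 7 of 11 were called, against 1.96%, 6.1% and 13.6% of all tests counted in the same way. Between regions, 19 of 56 tests were called at E14 (7.96% of all), 36 of 56 at E16 (19.3%), 33 of 56 at P1 (27.5%) and 11 of 28 at P7 (35%). With the same limits 18 of 56, 36 of 56, 28 of 49 and 7 of 21 were called, against 6.58%, 14.9%, 25.6% and 31.2%. The 18 hold 2 calls of hair cells at E14. At P7 the share of the members was close to that of all genes. The difference of a region from the others changed in 3 of 56 tests from E14 to E16 (2.35%), in 7 of 56 from E16 to P1 (5.19%) and in 9 of 28 from P1 to P7 (21.6%). With the same limits 2 of 56, 6 of 49 and 4 of 21 were called, against 1.43%, 3.22% and 16.5%. With hair cells, lateral supporting cells and the other Kolliker organ set against each other alone, 8 of 21 tests were called at P7 (34.1% of all) and 5 of 21 changes from P1 to P7 (15.4%). Tests of 1 gene in several regions share libraries and are not independent.

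Other genes of the pathway were taken as 3 lists, tested without weights, so that the words for a change rest on 1 call here. Of all genes tested over the epithelium, 3.48% were called higher and 4.46% lower from E14 to E16, 5.86% and 6.83% from E16 to P1 and 10.6% and 12.2% from P1 to P7. Of 21 genes of retinol uptake, storage and first oxidation, 12 were tested over all epithelial cells. From E14 to E16 none was called higher and 1 lower, *Adh5* (-0.75 ± 0.21, adjusted p = 0.0441), an alcohol dehydrogenase. From E16 to P1, 2 were higher and none lower: *Dhrs3*, which turns retinaldehyde back into retinol, by 0.70 ± 0.11, and *Rdh12*, a retinal reductase, by 0.59 ± 0.15. From P1 to P7, 2 were higher and 2 lower. *Rbp7*, a cellular retinol binding protein, rose from 1.41 ± 0.358 to 66.9 ± 5.07 CPM (2.75 ± 0.10, adjusted p = 2.16e-09), and *Rdh12* rose by 0.72 ± 0.17. *Rbp7* passed the filter through its P7 level alone, with 0.445, 0.463 and 1.76 CPM of all UMIs at E14, E16 and P1. Its call is thus not independent of the level that put it in the fit. Among the lower ones *Dhrs3* fell by 0.80 on the log2 scale. The medians of the list over the 3 steps were -0.12, 0.09 and -0.01 beside -0.12, -0.01 and -0.05 over all genes.

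Of 16 other receptors, partners and cofactors, 14 were tested, and none was called from E14 to E16. From E16 to P1 none was higher and 2 were lower, *Fabp5* (-1.29), a fatty acid binding protein that can also carry retinoic acid, and *Nr2f1* (-1.04), an orphan nuclear receptor. From P1 to P7 none was higher and 2 were lower, *Rxrg* (-1.55), the gamma retinoid X receptor, and *Fabp5* (-0.76). The medians were 0.03, -0.20 and -0.17. Of 15 genes known to respond to retinoic acid, only 5 were tested. None was called from E14 to E16, and 1 was called higher from E16 to P1 (*Dhrs3*, which is also in the uptake list). From P1 to P7 none was higher and 3 were lower, *Nav2* (-1.34) and *Dhrs3* among them. The medians were 0.26, -0.41 and -0.80.

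By region, *Rdh12* exceeded the other regions in hair cells by 1.45, 3.58 and 4.42 at E16, P1 and P7 on the log2 scale. In roof cells *Ttr*, transthyretin, which carries retinol binding protein in plasma and cerebrospinal fluid, was higher by 4.97 at E14 and 6.64 at E16. There *Rdh10*, the main retinol dehydrogenase of the embryo, was higher by 1.59 and 1.29. Of all genes, 6.88% and 15.5% were called higher in roof cells. *Ttr* had a UMI in 3.52% and 2.51% of all cells at these ages. *Rdh12* and *Ttr* may have passed the filter through the regions where they were high, so their calls may not be independent of those levels.

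Members of the set differed in pattern. Over the 30 groups of age and cell class, the correlation (Pearson's r) of log2(CPM + 10) was -0.03 between *Cyp26a1* and *Cyp26b1* and 0.46 between *Crabp1* and *Crabp2*, and over all pairs it ran from -0.51, between *Cyp26b1* and *Rarg*, to 0.51, between *Aldh1a1* and *Rarg*. These values describe groups that share libraries. Among 13650 genes, those with the pattern most like *Cyp26b1* were *Hs6st2* (r = 0.90), *Fgfrl1* (0.89) and *Lfng* (0.89), the last a marker used to name medial prosensory clusters. Those most like *Crabp1* were *Adgrg2* (0.87), *Gm44891* (0.85) and *Bcl2* (0.85), of which *Adgrg2* and *Bcl2* were used to name the medial Kolliker organ. For *Crabp2* they were *Col18a1* (0.86), *Sap30* and *Ncoa7*, and for *Cyp26a1* *Pmaip1* (0.78), *0610040J01Rik* and *Fermt1*. For *Aldh1a1* they were *Apobec2* (0.84), *Slc41a3* and *Cgnl1*, for *Aldh1a2* *Zfpm2* (0.88), *Ntrk3* and *Tmem35a*, and for *Aldh1a3* *Cep57l1* (0.77), *Extl1* and *Ccnd2*. *Rarb* was most like *Pros1* (0.92), *Cbr3* and *Nap1l5* and *Rarg* most like *Map2k3* (0.84), *Igf2* and *Prrx2*, and 2 of the 30 groups in these correlations were the mesenchyme and glia of P7. The values of *Aldh1a2* and *Rarb* rest on few groups. *Aldh1a2* had a mean of 20.9 CPM in roof cells at E16 and at most 2.13 CPM in the other epithelial groups.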

How the data were processed

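Single cell libraries (10x Chromium) of the cochlear duct floor of CD1 mice were taken as 4 groups by age, with 2, 3, 4 and 2 libraries at E14, E16, P1 and P7. The values were natural log values, which the authors had made by dividing each count by the total of its cell, multiplying by 10000, adding 1 and taking the natural log. There were 5253 cells at E14 and 3377 at P7, more than the paper analysed at these ages. Per the submitters' processing notes, Cell Ranger 2.1.1, Seurat 2.0 and the mm10 build had been used. Whole UMIs could be recovered from every value within 2%, which gave the depth: 1247 to 5598 cells and 3828399 to 23523802 UMIs a library. Limits from counts cover counting error only, and depth varies between libraries.

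Within each age, cells were clustered with scanpy 1.11.5 (2000 variable genes, 30 principal components, 20 neighbours, Leiden resolution 2 with leidenalg 0.10.2, Python 3.11.15), leaving out the 9 genes and the pathway lists. Clusters were named from marker lists, and the thresholds for giving a name were chosen with the clusters in view. A cluster short of them stayed unnamed. Doublets were called with Scrublet at an expected rate of 0.06 and removed in an alternative. It called 0.0711% to 3.60% of a library, and in P1 replicate 4, with 0.143% of 5598 cells, it cannot be taken to have worked. Both E14 libraries and E16 replicates 1 and 2 had similar shares, 0.0711% to 0.196%, so removal hardly tests doublets there.

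For each library with at least 10 cells of a class, the mean CPM of those cells was taken. limma 3.58.1 (R 4.3.3, with a mean-variance trend) was fitted to log2(CPM + 10), for genes averaging 5 CPM or more over the profiles, with two-sided tests and Benjamini-Hochberg adjustment over all genes. Ages were compared over all epithelial cells (10996 genes, 11 profiles) and within each region. All epithelial cells were every cell at E14, E16 and P1, unnamed clusters included, because no cluster was named as non-epithelial there. At P7 mesenchyme, glia and an unnamed cluster that scored highest on a non-epithelial list were left out. The gate on each cell also named non-epithelial cells at the earlier ages. Regions were compared in 1 fit of 79 profiles (11164 genes) with the library as a block, each against the unweighted mean of the other epithelial regions of its age. An interaction is the change of that difference between neighbouring ages. The fits were tested on simulated data. Since calls were often false there for regions of few cells, weights for depth were added as an alternative, chosen after seeing the data.

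Alternatives changed the pseudocount, the filter, the scaling (summed UMIs), doublets, cells of more than 3000 genes, the Leiden resolution, a gate on each cell, a fit of each age alone, a replicate block and each library in turn. A comparison of the regions named at both P1 and P7 without roof cells was also chosen after seeing the data. All 9 genes are named. Of the lists, up to 4 genes past the threshold with the largest change are named per comparison described, and of genes alike in pattern the 3 with the highest correlation. Results for 1 gene of the lists, which their counts include, are not reported here. The members and lists were chosen with earlier results of these data known. Coordinates and promoters are from GRCm38, the assembly that mm10 is based on.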

Additional observations from a re-analysis of the deposited data

Results flagged for a closer look

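In 29 groups of 4 libraries with a mean of at least 10 CPM, 2 libraries stood apart from the others of their group, where chance alone flags about 1 in 20 groups. *Cyp26a1* in lateral non-sensory cells of P1 replicate 2 measured 69.8 CPM beside 55.0 to 56.1 CPM in the other P1 libraries. *Crabp1* in the same cells of P1 replicate 3 measured 1.44 CPM on 1 UMI beside 33.7 to 38.7 CPM, and in P1 replicate 2 all of its 20 UMIs came from 1 cell.

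The difference of a region from the other regions changed between neighbouring ages in the following cases, by a test of the change itself (limma, adjusted p from 8.78e-08 to 0.0283), called without and with depth weights. Changes of roof cells that involve P1 or P7 are left out because of their few cells. From E14 to E16 it changed by -2.13 for *Aldh1a3* in interdental cells and by -2.02 for *Cyp26a1* in roof cells. The latter was lost without E14 replicate 1 (-2.02, adjusted p = 0.11) or E14 replicate 2 (-2.02, adjusted p = 0.112), and both were lost with a pseudocount of 1 CPM (-2.80 and -2.42). From E16 to P1 it changed by -1.65 for *Crabp2* in hair cells, 1.24 for *Crabp2* in the other Kolliker organ, -2.07 for *Cyp26a1* in medial prosensory and inner phalangeal cells, 1.87 for *Cyp26a1* in lateral non-sensory cells, -0.86 for *Aldh1a3* in interdental cells and 1.20 for *Aldh1a1* in lateral non-sensory cells. The *Aldh1a3* change from E16 to P1 was lost without E16 replicate 3 (-0.60, adjusted p = 0.359) or without P1 replicate 1 (-0.82), 2 (-0.92), 3 (-0.79) or 4 (-0.91), with pseudocounts of 1 CPM (-1.90) and 50 CPM (-0.27) and without cells of more than 3000 genes (-0.81). The *Aldh1a1* change was kept in 16 of 21 alternatives. It was lost, among others, without P1 replicate 1 (1.03) or P1 replicate 4 (0.99), at a Leiden resolution of 1 (0.99) and with the gate on each cell (0.81). With the same gate the *Cyp26a1* change of medial prosensory cells (-0.59) and the *Crabp2* change of the other Kolliker organ (0.61) were also lost. From P1 to P7, where the other regions were 7 at P1 and 3 at P7, it changed by 0.98 for *Cyp26b1* and 1.84 for *Crabp1* in hair cells, by -1.20 for *Aldh1a1* in lateral prosensory, pillar and Deiters cells and by -2.71 for *Crabp1* in the other Kolliker organ. The *Crabp1* change in hair cells was lost without P7 replicate 4 (1.83) or P7 replicate 5 (1.85). That of *Cyp26b1* was kept in 16 of 22 alternatives. It was lost, among others, without P1 replicate 2 (0.84), P1 replicate 3 (0.93), P7 replicate 4 (0.97) or P7 replicate 5 (0.99). With a pseudocount of 1 CPM both *Crabp1* changes were lost (1.70 and -2.04). Against the regions named at both ages alone, without roof cells, the changes were 1.41 for *Cyp26b1* and 2.29 for *Crabp1* in hair cells and -3.72 for *Crabp1* in the other Kolliker organ, all called. *Crabp1* within hair cells itself went from 30 CPM to no UMI. The *Aldh1a1* change of lateral supporting cells was not called against those regions (-0.70, adjusted p = 0.165), and the region itself had 4 UMIs at P1 and 0 at P7.

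Cells outside the epithelium were named at P7 alone, as mesenchyme (258 cells) and glia (97 cells), and entered no comparison. In mesenchyme *Rarb* measured 57.2 CPM (57.5 and 56.8 in the libraries), *Rarg* 49.9 CPM (40.4 and 59.4) and *Aldh1a1* 26.0 CPM (17.5 and 34.5). In glia *Rarb* measured 50.7 CPM (70.5 and 31.0), *Aldh1a3* 28.0 CPM (42.5 and 13.4) and *Crabp2* 22.5 CPM (0 and 45.0). The glial values of *Rarb* and *Aldh1a3* rest on 15 UMIs each and that of *Crabp2* on 13, and 12 of the 15 for *Aldh1a3* came from 1 cell.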

How the results depend on the processing

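Of 154 called tests of the members, 71 kept their direction and stayed past the threshold in every alternative run that gave a value. Over all 3304 values from alternatives, 2930 kept both, 366 fell short of the threshold in the same direction and 8 reversed. With cells gated one by one, those that reversed were the *Crabp2* change from P1 to P7 in roof cells (-1.01), the *Aldh1a3* difference of medial prosensory cells at E16 (0.13), the *Crabp2* (0.41) and *Crabp1* (1.54) differences of roof cells at P1 and the roof interaction of *Aldh1a1* from P1 to P7 (-0.049). At a Leiden resolution of 1 they were the medial prosensory difference of *Cyp26a1* at E16 (-0.52) and its interaction from E16 to P1 (0.51), and without cells of more than 3000 genes the roof interaction of *Cyp26b1* from P1 to P7 (0.044). The cause was not tested.

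The number of members' tests called moved by over 1.5 times in these cases. For E14 to E16 within regions (8), it was 5 without a filter, 5 without cells of more than 3000 genes and 4 at a resolution of 1, and over all epithelial cells (4) it was 2 with a filter of 10 CPM, which tests fewer genes. For E16 to P1 within regions (7) it was 4 with a pseudocount of 1 and 3 without a filter, and over all epithelial cells (2) it was 1 with a filter of 10 CPM. For P1 to P7 within regions (11) it was 20 with the gate. Between regions it was 32 with each age alone and 30 with depth weights at E14 (19), and 20 with the gate at P7 (11). For interactions from E14 to E16 (3) it was 1 and 6 with pseudocounts of 1 and 50, 5 at a resolution of 1, 6 with the gate and 6 with depth weights, and from P1 to P7 (9) it was 17 with the gate and 5 with only the regions named at both ages and no roof cells, which gives fewer tests. Leaving out 1 library gave 2 to 9, 3 to 6 and 6 to 11 calls within regions over the 3 steps, 1 to 4, 1 to 3 and 4 to 4 over all epithelial cells, 9 to 24, 24 to 37, 30 to 35 and 9 to 11 between regions, and 0 to 5, 6 to 8 and 5 to 11 for interactions. The libraries that moved a count by over 1.5 times were as follows. Within regions from E14 to E16 they were E14 replicate 1 (4), E14 replicate 2 (2) and E16 replicate 2 (3), from E16 to P1 E16 replicate 1 (4) and replicate 2 (3), and from P1 to P7 P7 replicate 4 (6) and replicate 5 (7). Over all epithelial cells from E14 to E16 they were E14 replicate 1 (2) and replicate 2 (1), and from E16 to P1, where 2 were called, 8 of the 11 libraries each left 1. Between regions at E14 they were E14 replicate 1 (9) and replicate 2 (11), and for interactions E14 replicate 1 (0 by limma, with 7 at an unadjusted p under 0.05) and E16 replicate 3 (5) from E14 to E16 and P7 replicate 4 (5) from P1 to P7.

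Without E14 replicate 1 *Aldh1a3* was below the filter in the fit over regions, and without either E14 library in that over all epithelial cells, and could not be tested. The same held for *Cyp26a1* over all epithelial cells without the E14 library in which it was higher. Where 1 library of an age was left, it was assumed to vary like the other ages.

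Same-numbered libraries did not deviate together (r = -0.19 and 0.05 over 10996 genes for E14 and E16, and 0.06, -0.27 and -0.01 for E16 and P1), so the number is taken as a name only. With a replicate block the counts were 4 and 2 over all epithelial cells and 8 and 8 within regions, and *Crabp1* in hair cells from E14 to E16 (1.31) and *Cyp26b1* in the other Kolliker organ from E16 to P1 (-0.62) were no longer called. From P1 to P7 no paired fit was made, since these ages share 1 number only, and tests between regions have the library as a block already.

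Depth limits the weak genes most: *Aldh1a2*, *Rarb* and, outside roof and lateral cells, *Cyp26a1* rest on few UMIs, and 62 hair cells at E14, 71 lateral supporting cells and 31 roof cells at P7 give wide spreads.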

Other observations

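Some clusters without a region name held members at high levels. At P1 an unnamed cluster of 756 cells led by *Igf1*, *Rgcc* and *H19* had 47.6 ± 23.5 CPM of *Rarg* (n = 4) and 1511 ± 477 CPM of *Crabp1*. At E16 an unnamed cluster of 267 cells led by the cell cycle genes *Ube2c*, *Pclaf* and *Birc5* had 33.7 ± 15.9 CPM of *Cyp26a1* (n = 3) on 22 UMIs. At P7 all 50 mesenchymal UMIs of *Rarb* lay in the cluster led by *Ibsp*, *Otor* and *Coch* (66.2 ± 1.61 CPM, n = 2).

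*Rbp7*, a cellular retinol binding protein that was near 1 CPM over the epithelium at P1, was concentrated in few cells at P7. An unnamed cluster of 85 cells led by *Mansc4*, *Rbp7* itself and *Car14* held 696 of the 1213 epithelial UMIs of *Rbp7*, at 1299 ± 250 CPM (n = 2). The lateral supporting cell cluster led by *Umodl1* and *Prss56* held 821 ± 487 CPM and the hair cell cluster led by *Ocm* and *Pcp4*, with 33 cells, 489 ± 503 CPM. Clusters were chosen after these values were seen, and no test was made.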
